A study of Rattus norvegicus with 84 samples.

Results

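The 9 genes described here are the rat components of the classical complement pathway from C1q to C4 and their inhibitor: C1qa, C1qb and C1qc, C1r, C1s, C4a, C4b, C3 and Serping1. They were taken by symbol from 15999 genes listed in at least 1 of 3 tables of RNA-seq values, and all 9 were present and tested in every table. The RNA came from 3 hippocampal subregions, the dentate gyrus (DG) and the fields CA1 and CA3, of 28 male F344 rats, an inbred strain, in a study of aging and spatial pattern separation. The middle-aged group held 16 rats of 12 months and the young group 12 rats of 5 months, none with a transgene or drug named in the labels, and each rat gave 1 library per subregion from a single hemisphere, 84 libraries in all. Rats are numbered within their age group in the order of their records.

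The classical pathway is a cascade of blood and tissue proteins. C1q, built from the products of C1qa, C1qb and C1qc, binds antibodies, dying cells or synapses and carries the proteases C1r and C1s. Active C1s cleaves C4 and C2, whose fragments form the enzyme that cleaves C3, the component on which all complement pathways converge, and C1 inhibitor, the product of Serping1, blocks C1r and C1s. In rodent brain, microglia are the main known source of C1q, and C1q and C3 are known for tagging synapses that microglia remove during development.

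The start regions of the genes are shown for C1qa and C1qb, which belong to 1 cluster of genes and whose levels moved together, and for C4a and C4b, which are near copies of each other. The RefSeq promoter table of build GRCr8, which differs from the build rn6 named for the deposited values, held 6 of the 9 members, each as 300 bases reaching from 250 before to 50 after a transcript start. In that annotation C1qb, C1qc and C1qa follow each other on chromosome 5 with no other protein-coding gene between them, C1r and C1s are neighbours on chromosome 4, and C4a and C4b lie on chromosome 20. Capitals mark matches, on either strand, to GAGGAA, the core bound by the macrophage factor PU.1, or to TTCNNNGAA, the interferon-gamma activated site. The windows lie at chr5:154419884-154420183 (minus strand), chr5:154407778-154408077 (minus), chr20:4010107-4010406 (plus) and chr20:4201729-4202028 (plus), and are written 5′ to 3′ on the gene's strand.
C1qa: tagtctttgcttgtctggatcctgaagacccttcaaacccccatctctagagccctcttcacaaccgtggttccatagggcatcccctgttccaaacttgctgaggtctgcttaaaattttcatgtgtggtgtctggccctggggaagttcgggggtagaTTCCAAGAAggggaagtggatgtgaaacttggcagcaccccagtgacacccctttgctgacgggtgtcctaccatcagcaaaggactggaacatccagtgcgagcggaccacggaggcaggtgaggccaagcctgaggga
C1qb: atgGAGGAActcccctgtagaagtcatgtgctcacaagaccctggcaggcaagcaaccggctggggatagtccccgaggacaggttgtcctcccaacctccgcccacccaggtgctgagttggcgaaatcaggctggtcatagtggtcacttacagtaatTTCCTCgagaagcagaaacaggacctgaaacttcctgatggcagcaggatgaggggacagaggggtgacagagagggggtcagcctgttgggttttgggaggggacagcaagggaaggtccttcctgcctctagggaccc
C4a: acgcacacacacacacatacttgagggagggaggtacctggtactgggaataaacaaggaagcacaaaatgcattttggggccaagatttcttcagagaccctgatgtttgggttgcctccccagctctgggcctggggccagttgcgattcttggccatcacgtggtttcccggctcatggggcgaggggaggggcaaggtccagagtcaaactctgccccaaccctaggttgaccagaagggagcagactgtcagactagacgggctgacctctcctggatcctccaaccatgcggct
C4b: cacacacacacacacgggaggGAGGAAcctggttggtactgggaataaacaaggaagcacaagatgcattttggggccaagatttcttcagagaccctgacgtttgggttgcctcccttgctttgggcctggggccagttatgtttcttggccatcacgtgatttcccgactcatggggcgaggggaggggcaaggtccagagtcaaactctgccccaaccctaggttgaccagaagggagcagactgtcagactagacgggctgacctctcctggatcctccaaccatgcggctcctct
The C4a and C4b windows were identical at 279 of 291 aligned bases, or 95.9%. GAGGAA occurred in the C1qb, C1r and C4b windows and in 27.6% of the 33469 promoters of the table, TTCNNNGAA in the C1qa window and in 8.87% of promoters, and the interferon-stimulated response element (GAAA, NN and GAAA in a row) in none of the 6 and in 3.92% of promoters. These matches are letters in a window and were not tested as sites.

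The deposited values are normalized counts, that is, reads per gene divided by 1 size factor per library, with each subregion scaled on its own. The 84 libraries held 14.45 to 23.36 M reads in genes, and the 9 members together took 0.020% to 0.264% of them. The fewest reads of any member in any library were 21 for C4b in the DG (95% exact Poisson interval 13 to 32.1, counting error only). C4a and Serping1 had as few as 31 and 30 reads in a DG library. Summed markers matched the subregion labels: the lowest CA1 library had 26587 for CA1 markers against at most 14347 in CA3 and 15886 in the DG, and the lowest DG library had 9473.5 for DG markers against at most 6699.1 in CA1 and 4497 in CA3. The animal numbers fall in 2 runs, the first with 10 middle-aged and 6 young rats and the second with 6 of each, which the labels do not call batches. The second run joins a stretch of numbers held by young rats alone and a separate stretch held by middle-aged rats alone. Within it, age and stretch of numbers cannot be told apart. Mitochondrial genes took a median of 6.62% of reads in CA1 of second-run young rats and 10.5% to 12.8% in the other CA1 groups. In CA3 the medians were 6.17% in second-run young rats and 8.51% to 8.78% in the other groups, and in the DG 5.6% and 6.81% to 8.77%. Age differences are also given within each run, but in the second run this share still differs between the ages.

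Middle-aged rat 10, of the first run, stood apart from all others in every subregion. In its CA1 library C1qa reached 13534, C3 11490, C4a 2895.8 and C4b 2205.8, which were 8.37, 9.62, 27.2 and 30.5 times the median of the other 15 middle-aged rats. The excess was smaller in its CA3 library, at 5.89-fold for C1qa, 5.08-fold for C3, 16.6-fold for C4a and 21.6-fold for C4b, and smaller again in the DG, at 2.57, 2.77, 7.15 and 4.70-fold. The proteases were nearer to the other rats: C1r was 1.77, 1.44 and 0.969 times the median and C1s 1.57, 1.45 and 1.07 times in CA1, CA3 and the DG. Serping1 was 3.32, 1.83 and 1.34 times the median.

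The same libraries were high in C2, Cd74 and summed microglial markers, and the sums of astrocyte, oligodendrocyte and neuron markers were near those of the other rats. C2, the partner of C4 in the enzyme that cleaves C3, was 20.1, 14.9 and 4.70 times the median, and Cd74, the invariant chain of MHC class II, 211.7, 56.5 and 30.6 times. The summed level of 10 microglial markers was 2.85, 2.26 and 1.44 times the median, while the astrocyte sum lay between 1.09 and 1.14 times, the oligodendrocyte sum between 1.07 and 1.11 times and the neuron sum between 0.902 and 0.976 times. Other sums lay further away. Summed DG markers were 0.26 times the median in CA1, the lowest of 28 rats, and CA1 markers 0.50 times in CA3. The endothelial and mural sum was 0.838, 0.952 and 1.12 times and the meningeal fibroblast sum 0.945, 0.753 and 1.12 times in CA1, CA3 and DG. The choroid plexus sum, which varied widely between libraries, was 1.75, 2.25 and 2.87 times. Single astrocyte markers were higher: Gfap was the highest of 28 rats in all 3 subregions, at 1.66, 1.44 and 1.45 times the median, and Aqp4 in CA1 at 1.57 times. Of the border macrophage markers other than Cd74, Mrc1 was 1.11, 0.779 and 1.27 times the median in CA1, CA3 and DG. Lyve1 was 0.947, 0.618 and 0.836 times and Cd163 1.03, 0.486 and 0.840 times. Lyz2, listed with the blood and leukocyte markers, was 1.10, 0.705 and 0.887 times. In CA1, 223 of 14685 tested genes (1.52%) were at least 4 times the median of all other rats in this library, and 6 of the 9 members were among them. Middle-aged rat 8 was second highest in CA3 for the 3 C1q genes, C3, C4a and C4b, with 2804.4 for C1qa and 3989 for C3. The age differences of the members below are given with all rats first, and without rat 10 where stated.

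**Figure D1:**
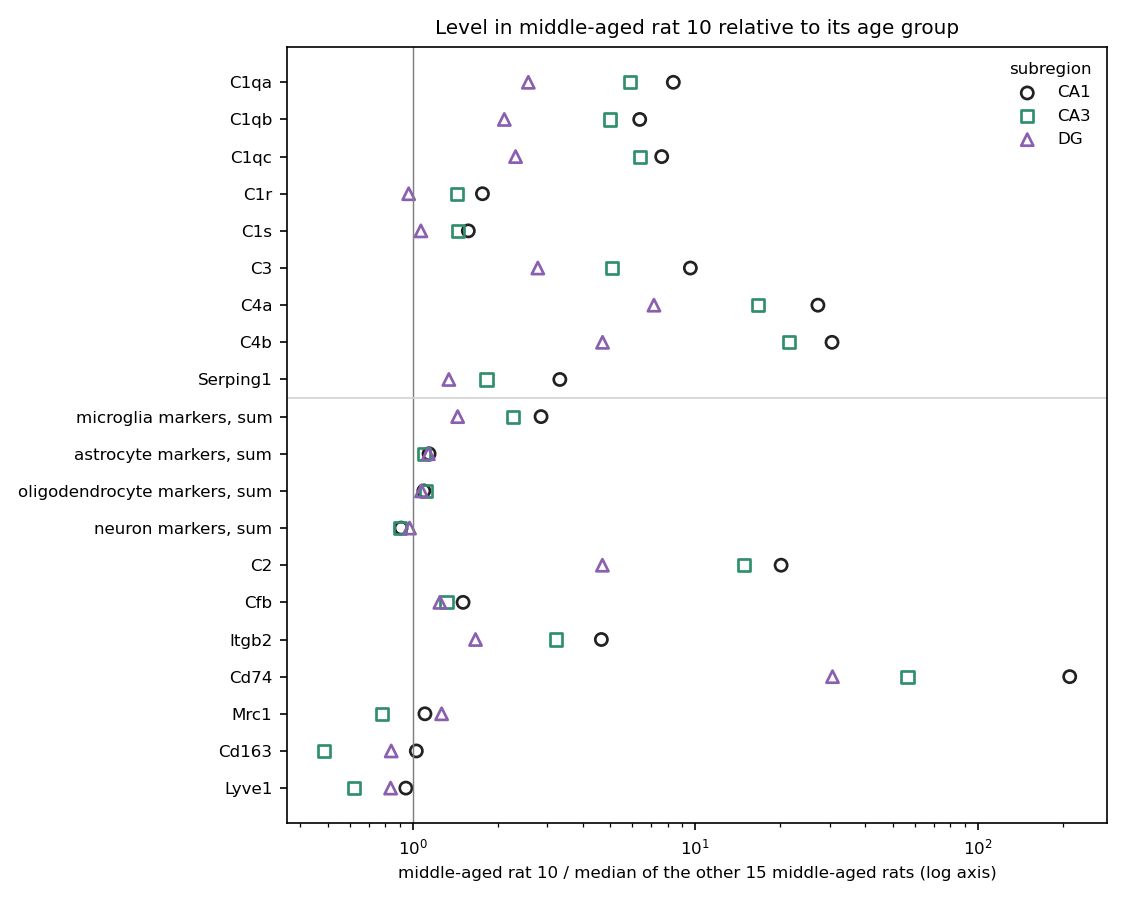
Level of each complement member, of summed cell-type markers and of selected related genes in middle-aged rat 10, divided by the median of the other 15 middle-aged rats, on a log axis; circles are CA1, squares CA3 and triangles the DG. C4a and C4b stand at 27.2 and 30.5-fold in CA1, C1r and C1s stay below 2-fold in all 3 subregions, and Cd74 reaches 211.7-fold.

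**Figure D2:**
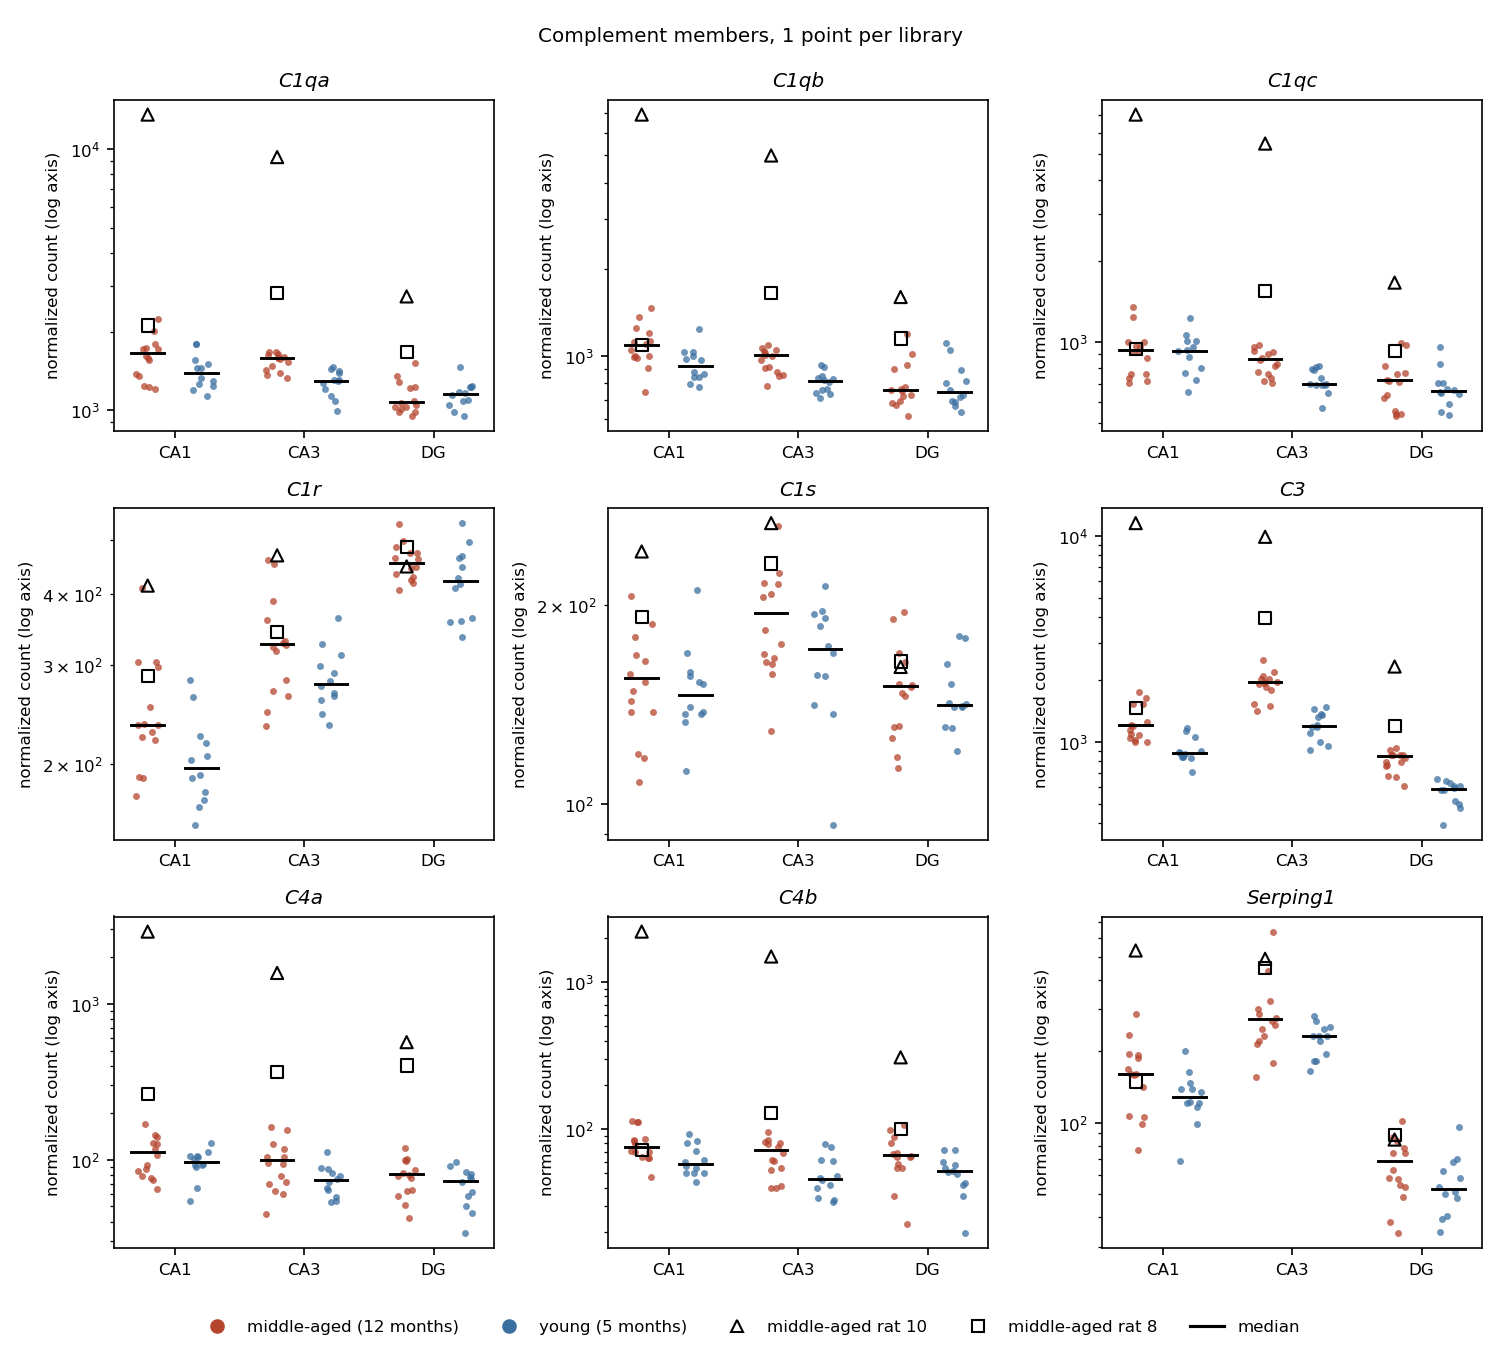
Normalized counts of the 9 members on log axes, 1 point per library, with middle-aged libraries (red) left of young ones (blue) in each subregion, a bar at the median, a triangle for middle-aged rat 10 and a square for middle-aged rat 8. The C3 groups hardly overlap in CA3 and the DG, where 15 of 16 middle-aged libraries lie above the highest young one.

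All 9 members had a positive difference, middle-aged minus young, in each subregion, but few passed the test, an empirical Bayes linear model (limma) on log2 of the value plus 1 with Benjamini-Hochberg adjustment over all genes. In CA1 2 of 9 rose, C1r and C3, while 12.4% of all tested genes rose. In CA3 2 of 9 rose, C1qa and C3, while 10.9% of all genes did, and in the DG 1 of 9, C3, while 18.5% did. For the mean of a rat's 3 subregions 3 of 9 rose, C1r, C3 and Serping1, while 25.4% of genes did. Each count lies about 1 gene or less from the background share, so the counts say nothing particular about the members. With all rats the median log2 difference of the 9 was 0.38, 0.45 and 0.15 for CA1, CA3 and DG. It was 0.32 for the mean of the subregions, and medians of all tested genes were 0.002 to 0.010. In bulk tissue more cells of a type and more RNA per cell cannot be told apart.

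Without rat 10 both the differences of the C1q genes, C3, C4a and C4b and their errors were smaller, and adjusted p moved either way: it was lower for C3 in every subregion and higher for C4a in the DG, at 0.218 against 0.140 with all rats (limma). Without rat 10 the median log2 difference of the 9 was 0.22, 0.33 and 0.13 for CA1, CA3 and DG. It was 0.20 for the mean of the subregions, and medians of all tested genes were 0.0006 to 0.0084. All 9 differences stayed positive in each. In CA1 1 of 9 then rose, C3, while 11.2% of all genes did. In CA3 5 of 9 rose, C1qa, C1qb, C1qc, C3 and C4b, while 10.2% of genes did. In the DG 1 of 9 rose, C3, while 18.3% did, and for the mean of the subregions 6 of 9, C1qa, C1qb, C1r, C3, C4b and Serping1, while 25.3% did.

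Within the runs the counts differed, and in the second run age goes with the stretch of animal numbers. The second run alone called 3, 4, 2 and 5 members in CA1, CA3, DG and their mean, while 16.8%, 8.43%, 23.9% and 29.1% of all genes rose. The first run, which holds rat 10, called 0 members in each by limma, while 1.68%, 2.11%, 0.145% and 8.54% of genes rose. At an unadjusted p under 0.05 it had 1, 1, 3 and 2 members, while 23.6%, 23.1%, 22.1% and 35.0% of all genes had one. Without rat 10 the first run called C3 in CA3 and in the mean, where 1.81% and 7.58% of genes rose, and 0 members in CA1 and DG, where 1.03% and 0.0620% rose. There 3 and 2 members had an unadjusted p under 0.05, as had 21.3% and 20.0% of all genes. On whole reads recovered from the deposited values, edgeR called 4, 7 and 3 members in CA1, CA3 and DG, where 13.6%, 11.1% and 18.2% of genes rose, and DESeq2 5, 7 and 2, where 14.5%, 12.0% and 19.3% rose.

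**Figure D3:**
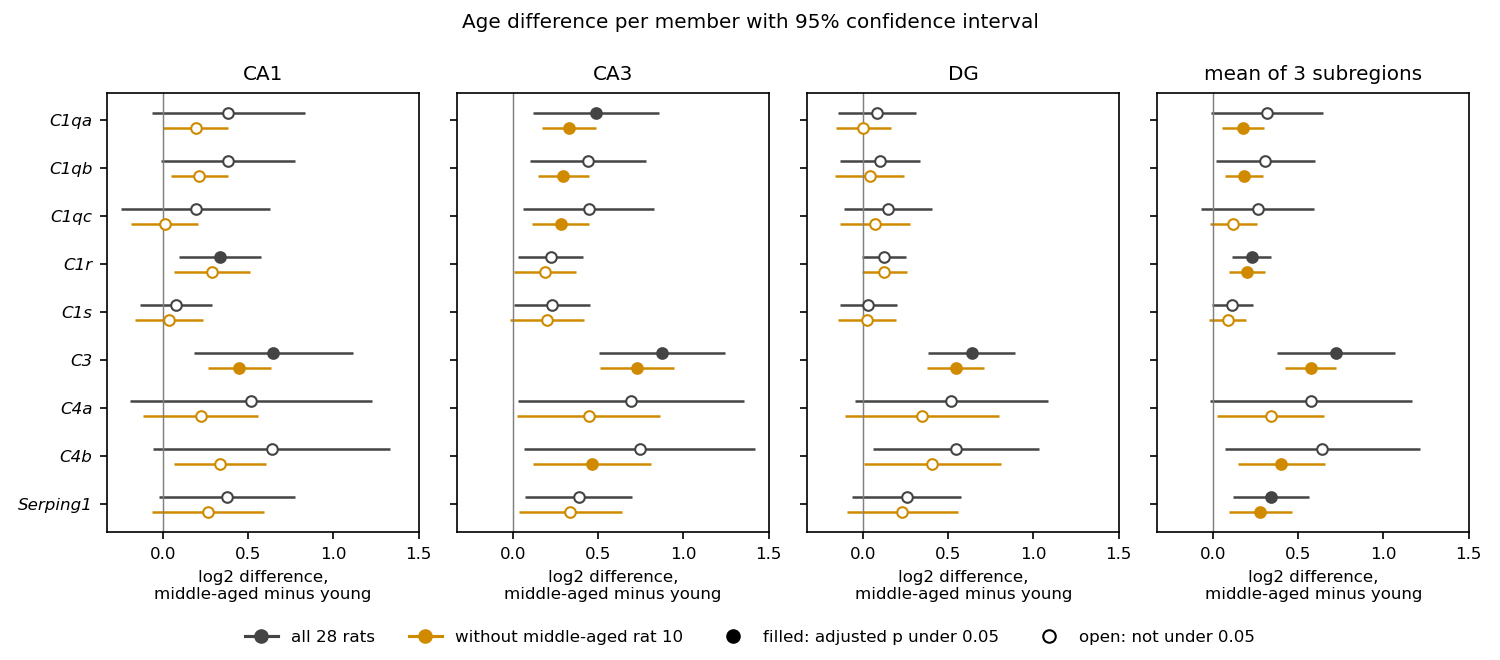
Log2 difference, middle-aged minus young, of each member in CA1, CA3, the DG and the mean of the 3 subregions, with 95% confidence intervals; grey is all 28 rats, orange is without middle-aged rat 10, and filled points have an adjusted p under 0.05. Leaving out the 1 rat shortens the intervals of the C1q genes, C3, C4a and C4b, and C3 is filled in all 4 panels either way.

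C3, the central component, was the member that rose in every subregion. In CA3 it had 1412.8, 1946.5 and 9858.3 normalized counts as the lowest, median and highest of 16 middle-aged libraries, against 914.04, 1192.3 and 1463.6 in 12 young ones. Of the middle-aged libraries 15 lay above the highest young library, and all 16 above the young median. The difference was 0.87 ± 0.18 (SE) on the log2 scale, with an adjusted p of 0.00155 by limma, and 0.73 ± 0.11 without rat 10 (adjusted p = 6.89e-05). In the DG, C3 had 609.17, 845.99 and 2312.3 in middle-aged libraries and 394.1, 587.32 and 656.03 in young ones, again with 15 of 16 above the highest young value. The difference there was 0.64 ± 0.13 (adjusted p = 0.000569 by limma) and 0.54 ± 0.08 without rat 10.

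In CA1 the C3 groups overlapped more. The lowest, median and highest values were 992.99, 1200.9 and 11490 in middle-aged libraries and 714.49, 877.52 and 1162.6 in young ones, and 9 of 16 middle-aged libraries lay above the highest young one. The difference of 0.65 ± 0.23 had an adjusted p of 0.0356 by limma. That call was lost with robust moderation and on leaving out young rat 2, 8 or 9, with adjusted p up to 0.0544. Without rat 10 the difference was 0.45 ± 0.09 with an adjusted p of 0.00184. Within the second run the differences in CA1, CA3 and DG were 0.46 ± 0.10, 0.86 ± 0.11 and 0.57 ± 0.11, each past the threshold. Within the first run without rat 10 they were 0.41 ± 0.12, 0.58 ± 0.14 and 0.49 ± 0.11, with adjusted p of 0.0838, 0.0303 and 0.0864 by limma.

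The 3 C1q subunit genes were higher in middle-aged CA3 and nearly level in the DG. In CA3, C1qa had 1331.9, 1589.2 and 9309.5 normalized counts as the lowest, median and highest middle-aged values, against 991.53, 1300.9 and 1461.1 in young libraries. Of 16 middle-aged libraries 12 were above the highest young one, and all 16 were above the young median. C1qb and C1qc had 10 such libraries each. The differences were 0.49 ± 0.18 for C1qa, 0.44 ± 0.17 for C1qb and 0.45 ± 0.19 for C1qc, with adjusted p of 0.0498, 0.0544 and 0.0879 by limma, so only C1qa passed. The C1qa call rests at the threshold: it changed for 21 of the 28 rats when each was left out, with adjusted p up to 0.0763, and was lost with a pseudocount of 0.5, no filter, robust moderation or a run term. Array weights, edgeR and DESeq2, each with all rats, called all 3 C1q genes in CA3, and the first run alone called 0 of them. Without rat 10 all 3 passed, at 0.33 ± 0.08, 0.30 ± 0.07 and 0.28 ± 0.08, with adjusted p of 0.00435, 0.00585 and 0.0164.

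With all rats or without rat 10, limma gave no C1q call in CA1 or the DG. Other settings called C1qb in CA1: the second run alone (0.34 ± 0.09, adjusted p = 0.00766 by limma), array weights and DESeq2. The first run without rat 10 gave 0.11 ± 0.12 for C1qb in CA1 (adjusted p = 0.632 by limma). In CA1, C1qa had 1205.8, 1664.7 and 13534 in middle-aged libraries and 1137.3, 1389.6 and 1792.6 in young ones, a difference of 0.38 ± 0.22 with 5 of 16 libraries above the young range. Without rat 10 the CA1 differences were 0.19 ± 0.09 for C1qa, 0.22 ± 0.08 for C1qb and 0.01 ± 0.10 for C1qc, with adjusted p of 0.126, 0.0528 and 0.951 by limma. C1qc in CA1 also went with the run: first-run medians were 940.9 in middle-aged rats other than rat 10 and 1008 in young rats, and second-run medians 758.4 in middle-aged and 785.4 in young rats. In the DG, C1qa had 950.59, 1073.1 and 2728.8 in middle-aged libraries against 949.15, 1153.6 and 1470.8 in young ones, and the groups overlapped almost wholly. The DG differences were 0.08 ± 0.11, 0.10 ± 0.11 and 0.15 ± 0.13 for C1qa, C1qb and C1qc, and 0.004 ± 0.080, 0.04 ± 0.10 and 0.07 ± 0.10 without rat 10.

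The age difference of C1qa was larger in CA3 than in the DG when tested within rats. The CA3 minus DG difference of the age effect was 0.41 ± 0.12 on the log2 scale, with an adjusted p of 0.0486 by limma, the 1 of 9 members that passed, while 1.67% of all genes did in this direction. It was 0.33 ± 0.09 without rat 10 (adjusted p = 0.0392 by limma, with 1.22% of genes passing in this direction) and 0.41 ± 0.11 in the second run alone (adjusted p = 0.0304), while the first run alone gave 0.36 ± 0.18 (adjusted p = 0.455). C1qb had 0.34 ± 0.13 and C1qc 0.30 ± 0.13, with adjusted p of 0.122 and 0.181, and C3 0.24 ± 0.11 (adjusted p = 0.197). Without rat 10 these were 0.26 ± 0.10, 0.21 ± 0.10 and 0.18 ± 0.10, none past the threshold. Leaving out single rats removed the call for 17 of the 28, with adjusted p between 0.0226 and 0.0948. Between CA1 and DG 0 members passed, while 0.370% of genes were higher in CA1, and between CA1 and CA3 0, while 0.0138% were. By limma at an unadjusted p under 0.05 there were 0 members in CA1 minus DG and 1, C1qc, in CA1 minus CA3, where 16.3% and 10.2% of all genes had one, while edgeR and DESeq2 were run only within subregions.

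By limma with all rats, C1r rose in CA1 and in the mean of the subregions by small amounts. In CA1 it had 175.28, 234.88 and 414.62 as the lowest, median and highest middle-aged values, against 155.96, 197.09 and 281.55 in young libraries, with 6 of 16 above the young range. The difference was 0.34 ± 0.12 (adjusted p = 0.0346 by limma) and 0.29 ± 0.11 without rat 10 (adjusted p = 0.0535), and leaving out single rats removed the call for 6 of 28. In CA3 and DG the differences were 0.22 ± 0.09 and 0.12 ± 0.06 (adjusted p = 0.0871 and 0.117 by limma). Some settings called C1r there: a run term and DESeq2 in CA3, and array weights, the second run alone or leaving out young rat 3 in the DG. The first run alone gave 0.19 ± 0.12 in CA3 and 0.02 ± 0.08 in the DG, neither past the threshold. For the mean of the subregions C1r was up by 0.23 ± 0.06 (adjusted p = 0.00162), and by 0.20 ± 0.05 without rat 10 (adjusted p = 0.00201). By run the mean differed by 0.29 ± 0.07 in the second run and by 0.14 ± 0.06 in the first run without rat 10, with an adjusted p of 0.0924 in the first. C1s, the substrate of C1r, did not pass in any subregion: its differences in CA1, CA3 and DG were 0.08 ± 0.10, 0.23 ± 0.11 and 0.03 ± 0.08, and 0.04 ± 0.10, 0.20 ± 0.11 and 0.03 ± 0.08 without rat 10.

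C4a and C4b encode near-identical proteins, and reads that match both cannot be placed for certain, so each value is uncertain as to the gene. In CA3, C4b had 39.664, 72.592 and 1492.8 in middle-aged libraries and 31.776, 45.624 and 78.945 in young ones, with 7 of 16 above the young range. Its difference was 0.74 ± 0.33 (adjusted p = 0.106 by limma), and 0.46 ± 0.17 without rat 10 (adjusted p = 0.0498). For the mean of the subregions C4b gave 0.64 ± 0.28 (adjusted p = 0.0553) and 0.40 ± 0.12 without rat 10 (adjusted p = 0.00835). C4a gave no call by limma with or without rat 10: 0.69 ± 0.33 in CA3 and 0.52 ± 0.28 in the DG, and 0.45 ± 0.21 and 0.35 ± 0.22 without rat 10. On recovered reads of all rats, edgeR called both C4a and C4b in CA1, CA3 and the DG. DESeq2 called C4b in each of these and C4a in none. Rat 8 was high for C4a, with 262.48, 365.6 and 401.04 in CA1, CA3 and the DG, and without rats 8 and 10 the mean difference of C4a was 0.21 ± 0.09 with an adjusted p of 0.0412.

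By limma with all rats, Serping1 rose in the mean of the subregions and in no single one. On recovered reads of all rats, edgeR called it in CA3, and DESeq2 called it in CA1 and CA3. The mean difference was 0.34 ± 0.11 (adjusted p = 0.0113 by limma) and 0.28 ± 0.09 without rat 10 (adjusted p = 0.0124). In CA3 it had 156, 271.61 and 636.58 as the lowest, median and highest middle-aged values, against 165.42, 231.36 and 280.35 in young libraries, with 7 of 16 above the young range, and the highest was rat 14 and not rat 10. The CA3 difference was 0.39 ± 0.15 (adjusted p = 0.0683), and 0.34 ± 0.15 without rat 10 (adjusted p = 0.105 by limma). The runs differed by subregion: in the second run Serping1 gave 0.54 ± 0.15 in CA1 and 0.74 ± 0.20 in CA3, both past the threshold, and -0.05 ± 0.25 in the DG, and in the first run without rat 10 0.08 ± 0.23, 0.03 ± 0.16 and 0.46 ± 0.18, none past it.

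The members also differed in where in the hippocampus they were highest. Since each subregion was scaled on its own, these orders are described and not tested, and the counts of rats in parentheses use counts scaled to each library total. C1r was lowest in CA1, higher in CA3 and highest in the DG, with medians over 28 rats of 223.85, 305.57 and 447.9 normalized counts, and CA1 lay above the DG in 0 rats (0). Its inhibitor had another order: Serping1 had medians of 144.01, 247.09 and 58.532 for CA1, CA3 and DG, and CA3 lay above the DG in 28 rats (28) and above CA1 in 25 (25). C3 also was highest in CA3, at 1510.7, against 1060.6 in CA1 and 676.6 in the DG, with CA3 above CA1 in 27 rats (26) and CA1 above the DG in 28 (28).

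The C1q genes had their lowest medians in the DG, by a smaller step. C1qa had medians of 1532.9, 1432.3 and 1119.2 for CA1, CA3 and DG, CA1 lay above the DG in 27 rats (25), and CA3 above CA1 in only 10 (7). C1qc was higher in CA3 than in the DG in 21 rats (17), as was C1s in 21 (18), and C1s was higher in CA3 than in CA1 in 23 (19). C4a was higher in CA1 than in the DG in 21 rats (21) and C4b in 22 (22), while CA3 exceeded the DG in 17 (14) for C4a and 14 (11) for C4b. The ratio of CA3 to DG for C1qa had a median of 1.37 in middle-aged rats and 1.11 in young rats, while for C1r it was 0.722 in middle-aged and 0.679 in young rats. The summed microglial markers had the same low place in the DG, with medians of 6635.6, 6291.6 and 4725.9 in middle-aged CA1, CA3 and DG and 6285.9, 5599 and 4827.2 in young ones.

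**Figure D4:**
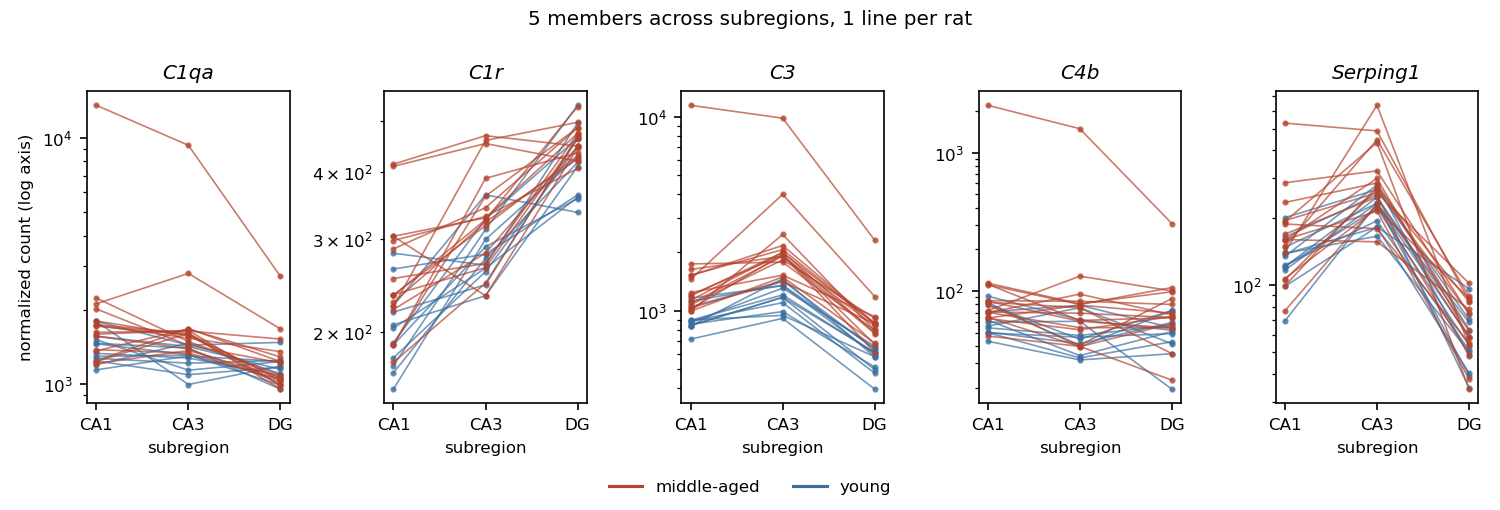
Normalized counts of 5 members in CA1, CA3 and the DG on log axes, 1 line per rat, middle-aged red and young blue. C1r lines climb towards the DG, Serping1 and C3 lines peak in CA3 for most rats, and the top line in the C1qa, C3 and C4b panels is middle-aged rat 10.

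Within a library the ratios between C1q subunit genes varied less than those between C4a and C4b. Over the 27 rats other than rat 10, the C1qa to C1qc ratio in CA3 had a median of 1.79 and a range of 1.53 to 2.19, and the SD of its log2 was 0.13, against 0.27 for log2 C1qa itself. This was the tightest of the C1q ratios. The widest, C1qb to C1qc in CA1, ran between 0.833 and 1.55 with a log2 SD of 0.21, near the 0.24 of log2 C1qb itself. Rat 10 had a C1qa to C1qc ratio of 1.70 in CA3, inside the range of the others, and a C1qa to C1qb ratio of 1.952 in CA1, just above their range of 1.129 to 1.939. The C4a to C4b ratio in CA3 ran between 0.470 and 3.90, and its log2 SD of 0.68 was above that of C4a alone, 0.62. The C1r to C1s ratio had medians of 1.54, 1.67 and 3.01 for CA1, CA3 and DG. These ratios are of reads and not of transcripts, since transcript lengths were not used.

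The genes whose values followed the members most closely across libraries were ranked by Pearson's r of log2 values after removing age-group means, averaged over the subregions (28 libraries each, 14291 genes, members left out). Libraries share depth and scaling, and rat 10 alone can set such values, so the leading genes among the other 27 rats are also given, as a description. For the mean of the C1q genes the leading genes were RT1-A1, a class I MHC gene, at 0.93, and Npc2, a lysosomal cholesterol carrier, at 0.93, followed by LOC103689965, Lgals3bp and Pld4 at 0.91 to 0.92. Without rat 10, Npc2 led at 0.79, followed by LOC100360087 at 0.75, RT1-A2 at 0.73, RT1-A1 at 0.73 and LOC103689965 at 0.72. C3 followed the C1q mean at 0.87 with all rats and 0.58 without rat 10, C4a at 0.80 and 0.40, and C4b at 0.84 and 0.40.

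The other members had other companions. For C3 the 5 leading genes were Cd22, LOC103689965, RT1-Ba, C2 and Itgal, at 0.87 to 0.90, but none of them stayed among the 5 without rat 10, when Tprn, Otud7b, Rgs3, Galnt6 and Bcas1 led at 0.67 to 0.69. C4a had LOC103689965, C2, Lgals3bp, Cd74 and Fcgr3a at 0.82 to 0.88, and the same 5 at 0.50 to 0.63 without rat 10. C4b had Pld4, RT1-A1, Cyth4, LOC103689965 and Arpc1b at 0.82 to 0.83, replaced without rat 10 by Tap1, Rela, Pim3, Irf7 and She at 0.47 to 0.49. Serping1 had Efhd1, Cnp, a myelin enzyme, Apod, Ctnna1 and Gltp at 0.69 to 0.70, and without rat 10 Efhd1, Apod, Aif1l, Cnp and Gltp at 0.69 to 0.76. C1s followed Gfap, the intermediate filament of astrocytes, at 0.68, then Vat1, Sdf2l1, Ddr1 and Tspan15 at 0.59 to 0.64, and without rat 10 Gfap at 0.65 and Tspan15, Ddr1, Vat1 and Kif1c at 0.59 to 0.64. C1r followed Igfbp5 at 0.63, then Il4r, Spint2, Dgat2 and Rps6ka4 at 0.52 to 0.58, and without rat 10 Igfbp5 at 0.65 and Dgat2, Gnal, Shisal1 and Ndn at 0.56 to 0.61. C1r followed the C1q mean at 0.31, or 0.09 without rat 10.

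Around the classical components, the shares of regulators, lectin and alternative route genes and receptors that passed are read against all genes, of which 25.4% rose and 24.6% fell in the mean of the subregions. Of 12 regulators tested in the mean of the subregions 3 rose and 5 fell (median -0.05), and the counts without rat 10 were 3 and 5. Cd59, which blocks the membrane attack complex, averaged 1790.9 ± 189.5 normalized counts in middle-aged CA1 and 1464.4 ± 188.52 in young CA1 (SD, n = 16 and n = 12), a difference of 0.29 ± 0.06 (adjusted p = 0.00254 by limma). It rose by 0.21 ± 0.04 in the mean, and Cd46, a cofactor for cleaving C3b, by 0.41 ± 0.14. Cd46 was low: in CA1 it averaged 13.295 ± 4.866 normalized counts in middle-aged and 9.5743 ± 5.1324 in young libraries (SD, n = 16 and n = 12). Cr1l, the rodent regulator Crry, rose by 0.11 ± 0.04.

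The regulators that fell are mostly neuronal proteins with complement-control domains. Sez6 fell in all 3 subregions, averaging 4562.3 ± 606.43 normalized counts in middle-aged DG and 5883.9 ± 838.38 in young DG (SD, n = 16 and n = 12), a difference of -0.37 ± 0.07 (adjusted p = 0.00053 by limma). In the mean of the subregions Sez6 fell by 0.27 ± 0.04, Sez6l2 by 0.25 ± 0.04, Sez6l by 0.21 ± 0.05 and Vtn, vitronectin, by 0.17 ± 0.05.

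Of 8 genes of the lectin and alternative routes 3 rose and 1 fell in the mean of the subregions (median 0.25), and 3 and 1 without rat 10. Colec12, a scavenger collectin, rose in all 3 subregions and by 0.38 ± 0.07 in the mean, Cfd, factor D, by 0.45 ± 0.14 and Colec11 by 0.25 ± 0.10, and Cfp, properdin, fell by 0.21 ± 0.07. Without rat 10 Colec11 missed the threshold (adjusted p = 0.0508 by limma), and C2 passed it at 0.25 ± 0.08 (adjusted p = 0.0142), against 0.47 ± 0.24 and 0.103 with all rats. Of 8 receptor genes 1 rose and 2 fell (median -0.03), with and without rat 10: Megf10, a phagocytic receptor that binds C1q, rose by 0.15 ± 0.04, Lrp1 fell by 0.29 ± 0.06 and Cd93 by 0.23 ± 0.08. C2, Itgb2, C3ar1 and C8g are named for their place in the cascade, after their values were seen. Itgb2, the beta chain of complement receptor 3, rose in CA3 by 0.40 ± 0.14 (adjusted p = 0.0408 by limma), by 0.29 ± 0.09 without rat 10, and gave 0.21 ± 0.12 in the mean. C3ar1, the receptor for C3a, gave -0.01 ± 0.15. Of the terminal components C8g was tested in the mean of the subregions, at -0.27 ± 0.12 (adjusted p = 0.0529).

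**Figure D5:**
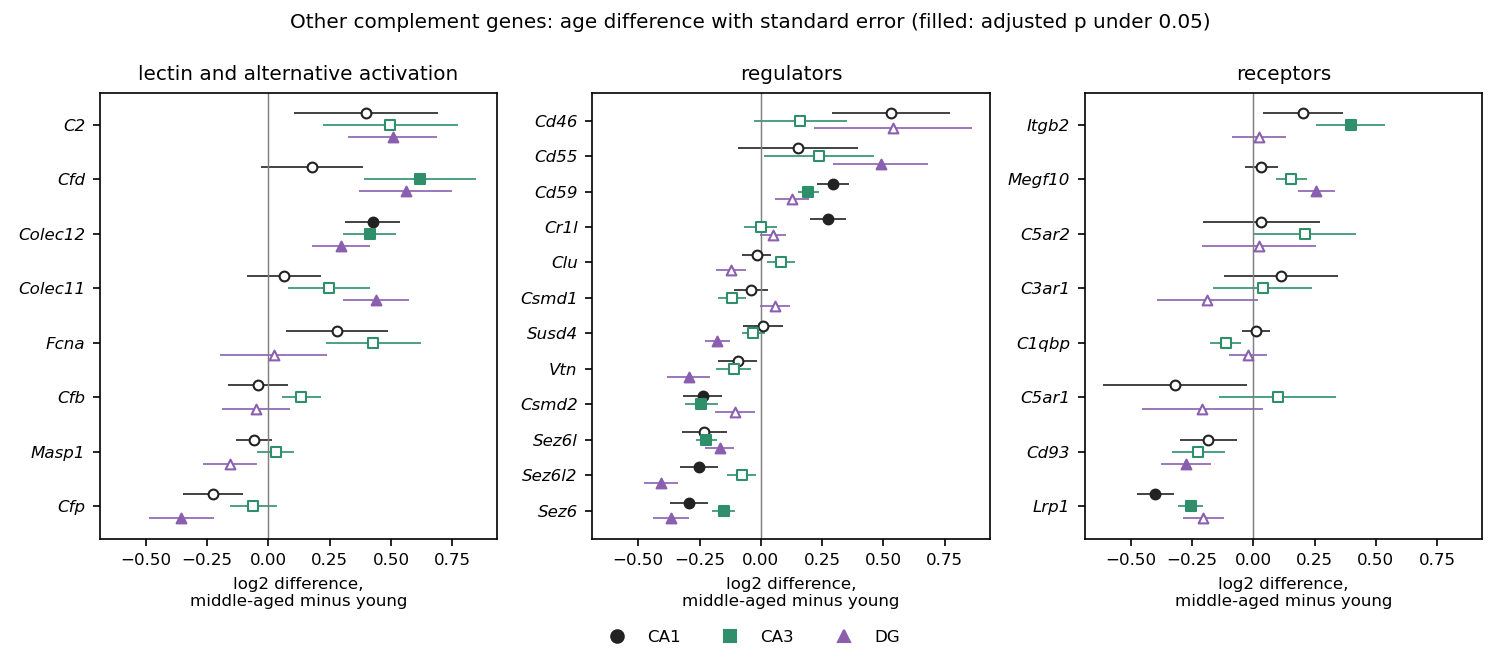
Log2 difference, middle-aged minus young, with its standard error for 8 genes of the lectin and alternative routes, 12 regulators and 8 receptors in CA1 (circles), CA3 (squares) and the DG (triangles); filled symbols have an adjusted p under 0.05. Colec12 is filled to the right in all 3 subregions, and Sez6 is filled to the left in all 3.

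Cell-type markers are described beside these differences, and their part in the members' differences was not tested. Of 10 microglial markers tested 4, 8 and 4 rose in CA1, CA3 and DG and 7 in the mean of the subregions, and 0 fell. Of all tested genes 12.4%, 10.9%, 18.5% and 25.4% rose, in the same order, and 12.8%, 10.8%, 18.5% and 24.6% fell. Without rat 10 the microglial counts were 5, 8, 3 and 7, where 11.2%, 10.2%, 18.3% and 25.3% of all genes rose. The median of the microglial markers' mean differences was then 0.27, against 0.31 with all rats. Their summed level in CA3 ran between 5890.2 and 14160 in middle-aged libraries (to 7690 without rat 10) and between 4980.9 and 6159.4 in young ones. In the DG it ran between 4058.1 and 6793.1 in middle-aged and 4132.2 and 6583 in young libraries. Aif1 rose in all 3 subregions, whereas Csf1r did not pass in any, and no microglial marker listed in the tables was at 0 throughout. Of 9 astrocyte markers 2 rose and 2 fell in the mean of the subregions, of 7 oligodendrocyte markers 0 rose and 4 fell, and of 7 meningeal fibroblast markers 1 rose and 4 fell. Without rat 10 the astrocyte counts were 1 and 2 and the meningeal fibroblast counts 1 and 3. These short lists are read against the 25.4% of all genes that rose and 24.6% that fell in the mean. With all rats the astrocyte counts lie near those shares. Of 4 border macrophage markers 3 rose, Cd74, Lyve1 and Mrc1, and of 3 blood and leukocyte markers 1 rose. The choroid plexus sum varied widely between libraries of 1 group, between 132.47 and 19874 in middle-aged CA3 and between 151.39 and 6515.4 in young CA3.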

How the data were processed

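RNA-seq values of 28 rats were analysed as 3 tables, 1 per subregion. Build rn6, Partek, DESeq2 3.5 and STAR 2.5.3a appear in the submitters' processing notes, without their roles. The signal values the authors deposited are reads per gene, with each library scaled by 1 factor of its own: 100% of values of up to 1000 reads came back within 0.1 of a whole read. Library totals are given in the report, and intervals cover counting error only. ERCC spike-ins, named in the labels' protocols, had 0 rows. In CA3 a column headed by its animal number alone was matched to that animal's CA3 library, and 0 sample columns were unused.

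Genes of at least 10 in at least 12 libraries were tested with limma 3.58.1 in R 4.3.3 (trend, two-sided) on log2(value + 1), with Benjamini-Hochberg adjustment and a threshold of 0.05. Fold changes on this scale understate changes of low genes. Subregions of a rat, paired by the animal number in the titles, were averaged or subtracted within the rat. Alternatives were DESeq2 1.42.0 and edgeR 4.0.16 on the whole reads recovered, other pseudocounts, filters and scalings, robust or weighted fits, each run of animal numbers alone or as a term, and leaving out rats or the highest library. The labels give no behavioural group. The closest pair of libraries differed by a chi-square of 5.124 per degree of freedom, so all were counted as separate samples. The p-values set each age difference against the spread between rats.

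On simulated data 20.3%, 72.9% and 97% of genes changed 1.2, 1.5 and 2-fold were recovered for CA1. The shares were 54.2%, 87.7% and 92.1% for CA3, and 23.5%, 89.1% and 95.6% for the DG, with 5, 3 and 7 false calls. Only 59 to 76 genes per fold were changed in each simulation, far fewer than were called in the data. Genes were drawn independently, with no outlying rat, so these shares need not hold for the tests above. The members and lists were chosen with earlier results of these data known. The named genes are all members, up to 4 genes per direction of each other complement list with the smallest p in the mean of the subregions, and the 5 genes most alike to each member. Promoters came from RefSeq, build GRCr8. Members missing from that table are C1qc, C1s and Serping1. 1 complement regulator is not reported here.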

Additional observations from a re-analysis of the deposited data

Results flagged for a closer look

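The age difference of C1qa was larger in CA3 than in the DG by 0.41 ± 0.12 on the log2 scale in a test of the difference itself within rats (limma, adjusted p = 0.0486, n = 16 middle-aged and n = 12 young rats). Alternatives put the adjusted p on both sides of the threshold: 0.0304 in the second run alone, 0.0502 with no filter on low values, 0.0618 without middle-aged rats 8 and 10, and 0.455 in the first run alone.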

How the results depend on the processing

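C3 kept a positive difference under every alternative run in CA1, CA3, DG and their mean, but its CA1 call was lost with robust moderation, in the first run with or without rat 10, and without young rat 2, 8 or 9. Its DG call was also lost in the first run with or without rat 10. Its CA3 and mean calls were lost in the first run with rat 10 and kept there without it. The number of members called by limma in CA1 was 1 with robust moderation, without the rat highest in C1q (rat 10), without each member's highest library and without rats 8 and 10. Of all genes, 12.3% rose in CA1 with robust moderation and 10.9% without rats 8 and 10. In CA3 the number of members was 1 with a pseudocount of 0.5, no filter or robust moderation, 4 with array weights or without rats 8 and 10, and 5 without rat 10 or each member's highest library. The shares of all genes that rose in CA3 were 10.9%, 10.3% and 10.8% with the pseudocount of 0.5, no filter and robust moderation. They were 10.4% with array weights and 10.5% without rats 8 and 10. In the DG the number of members was 2 with array weights or without each member's highest library, and for the mean of the subregions 6 with array weights or without rat 10 and 7 without rats 8 and 10. With array weights 23.6% of all genes rose in the DG and 29.0% in the mean, and without rats 8 and 10 25.5% rose in the mean. edgeR called 4, 7 and 3 members in CA1, CA3 and DG and DESeq2 5, 7 and 2. Leaving out single rats gave 0 to 2 members in CA1, 1 to 5 in CA3, 1 to 2 in the DG, 3 to 6 in the mean and 0 to 2 for CA3 minus DG. The first run alone called 0 members in each, and without rat 10 it called 0, 1, 0 and 1 in CA1, CA3, DG and the mean, while the second run called 4 in CA3, 2 in the DG and 5 in the mean. C1qa for CA3 minus DG, the 1 member called, dropped to 0 calls with no filter, robust moderation, a run term, no replicate block, the replicate block as a random effect, the first run with or without rat 10, and without rats 8 and 10. Pairing within the rat is by design, and without the replicate block its adjusted p was 0.330.

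All genes called in the first run numbered 468, 719, 25 and 2628 in CA1, CA3, DG and the mean, and 278, 588, 10 and 2280 without rat 10. For CA1 minus CA3 they numbered 25 with array weights, 48 with a run term, 100 in the first run, 51 there without rat 10, 1 in the second run, 4 without the replicate block, 14 with it as a random effect, 0 without rats 8 and 10, and 0 to 32 leaving out single rats. For CA1 minus DG they numbered 672 with array weights, 365 with a run term, 25 in the first run, 0 there without rat 10, 8 without the block, 48 without rats 8 and 10, and 36 to 474 leaving out single rats. For CA3 minus DG they numbered 1086 with array weights, 1 in the first run with or without rat 10, 1170 in the second, 171 without the block, 228 without rats 8 and 10, and 168 to 1134 leaving out single rats. Uncalled differences turned negative in the second run for C1qa, C1s, C4a and Serping1 in the DG (-0.0961, -0.0386, -0.0569 and -0.0515) and for C1s and C4a in CA1 (-0.0275 and -0.0438). They did so also for C1qa in the DG without rats 8 and 10 (-0.0345), C1s in the DG with quantile normalization (-0.0203), and C1qc in CA1 in the first run without rat 10 (-0.107). The cause was not tested. Settings that leave out rat 10 within the first run, or rats 8 and 10 together, were chosen after seeing the data. Depth limits C4a, C4b and, in the DG, Serping1.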
